A study of Mus musculus with 2 samples.

Results

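The 8 genes described here are Mcpt8, Prss34, Ms4a2, Fcer1a, Cpa3, Gata2, Hdc and Cd200r3, a set known from basophils and mast cells, out of 55536 Ensembl genes in the gene tables. They were taken by symbol, and they were chosen by measured values, since their levels in these same libraries were already known. Those levels are therefore given as a description with no test. The data were total RNA-seq profiles of primary neutrophils from the spleen of virgin adult male B6CASTF1/J mice at 65 days of age, a cross of a C57BL/6 mother with a CAST/EiJ father. There was 1 group with 2 libraries, made from 300 ng of RNA to which ERCC spike-ins had been added, and no other group to compare it with. The labels call the libraries biological replicates 1 and 2 but give 1 donor identifier for the pair. Whether they came from separate animals is therefore not clear, and part of the spread between replicates may be technical. How the neutrophils were purified is not given in the sources used here.

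Basophils and mast cells carry the high-affinity IgE receptor and release histamine and granule proteases when antigen cross-links IgE bound to that receptor. The receptor has a ligand-binding alpha chain (Fcer1a), a signal-amplifying beta chain (Ms4a2) and a gamma chain (Fcer1g) that other Fc receptors of myeloid cells share. Mcpt8 and Prss34 are serine proteases of mouse basophils, Cpa3 is a carboxypeptidase of mast cell and basophil granules, and Gata2 is a transcription factor of early progenitors, basophils and mast cells. Hdc, the enzyme that makes histamine from histidine, is also expressed by other myeloid cells. Cd200r3 is an activating member of the CD200 receptor family, found on basophils and mast cells.

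Replicate 1 held 18387963 expected counts and replicate 2 held 18090108. All 14 neutrophil-defining genes examined stood at or above 10 TPM (a level scaled to transcript length and library) in both libraries, and their medians were 593 and 880 TPM in replicates 1 and 2. Transcripts of other cell types were present. Their summed TPM in replicates 1 and 2 was 33.6 and 75.3 for 9 eosinophil genes, 55.6 and 127 for 6 B cell genes, 54.4 and 125 for 6 erythroid genes, and 18.1 and 14.1 for 6 platelet and megakaryocyte genes. In 7 T and NK cell genes the sum was 32.4 and 53.9 TPM, nearly all of it Cd3d, and in 7 monocyte and macrophage genes it was 116 and 147 TPM. Expressed protein-coding genes together took 328306 and 454126 TPM, so a gene with the same share of protein-coding RNA has a higher TPM in replicate 2.

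The bases just before the start of transcription are shown for 6 of the genes. They are those of the granule proteases, the IgE receptor, Gata2 and histamine synthesis whose windows overlap no annotated exon. The presence or absence of AGATAA or TGATAA, which are GATA-type sequences, can thus be seen beside the level of Gata2. Each run is the 250 bases upstream of a RefSeq start on GRCm38.p6, which shares its coordinates with mm10. It is written 5′ to 3′ on the gene's own strand. These are bases of the reference genome, and the alleles from the CAST/EiJ father may differ. Capitals mark matches to AGATAA or TGATAA, which read TTATCT and TTATCA where they lie on the opposite strand. The windows are chr17:25298144-25298393 (Prss34, plus strand), chr3:20242182-20242431 (Cpa3, minus strand), chr19:11623720-11623969 (Ms4a2, minus strand), chr1:173227230-173227479 (Fcer1a, minus strand), chr6:88193641-88193890 (Gata2 at its distal start, plus strand) and chr2:126618679-126618928 (Hdc, minus strand).
Prss34: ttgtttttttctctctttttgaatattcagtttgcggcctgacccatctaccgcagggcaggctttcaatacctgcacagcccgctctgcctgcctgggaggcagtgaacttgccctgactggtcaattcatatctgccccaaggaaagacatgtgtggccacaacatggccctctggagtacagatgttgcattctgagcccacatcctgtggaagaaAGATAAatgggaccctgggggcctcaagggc
Cpa3: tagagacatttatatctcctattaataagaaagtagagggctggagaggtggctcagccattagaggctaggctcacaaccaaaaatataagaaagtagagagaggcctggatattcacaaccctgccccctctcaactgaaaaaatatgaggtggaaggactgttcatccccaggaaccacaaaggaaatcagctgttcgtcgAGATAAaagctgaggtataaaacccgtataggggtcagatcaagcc
Ms4a2: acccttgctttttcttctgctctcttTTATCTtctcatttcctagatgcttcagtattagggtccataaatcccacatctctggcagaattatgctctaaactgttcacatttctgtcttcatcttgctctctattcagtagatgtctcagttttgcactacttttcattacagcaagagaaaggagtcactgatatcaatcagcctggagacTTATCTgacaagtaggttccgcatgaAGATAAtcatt
Fcer1a: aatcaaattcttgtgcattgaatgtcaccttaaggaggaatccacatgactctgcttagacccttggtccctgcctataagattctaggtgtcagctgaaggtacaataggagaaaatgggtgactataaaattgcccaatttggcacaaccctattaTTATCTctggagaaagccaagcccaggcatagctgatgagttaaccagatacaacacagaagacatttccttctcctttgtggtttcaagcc
Gata2: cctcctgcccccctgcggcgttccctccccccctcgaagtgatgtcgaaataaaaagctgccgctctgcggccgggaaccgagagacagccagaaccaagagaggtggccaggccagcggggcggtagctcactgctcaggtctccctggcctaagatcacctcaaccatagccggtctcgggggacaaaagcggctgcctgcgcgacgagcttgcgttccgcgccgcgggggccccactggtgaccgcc
Hdc: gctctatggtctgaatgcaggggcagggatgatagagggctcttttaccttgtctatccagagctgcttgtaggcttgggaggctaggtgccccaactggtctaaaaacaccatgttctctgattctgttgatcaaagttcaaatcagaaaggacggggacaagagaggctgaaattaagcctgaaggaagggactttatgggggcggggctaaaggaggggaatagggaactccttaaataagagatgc
The match in Prss34 began 31 bases before the start, and the match in Cpa3 began 46 bases before it. Ms4a2 had 3 matches, which began 224, 37 and 11 bases before the start, and Fcer1a had 1, which began 92 bases before it. All 8 genes had an entry in the promoter table, with 9 windows in all, and 5 windows held a match, that of Cd200r3 being the one not printed. Of all 32851 windows of this length in the table, 16.6% held one. The windows of Hdc, Mcpt8 and Gata2 contain neither AGATAA nor TGATAA on either strand. Related sequences that end in G were not searched, and the Hdc window holds TGATAG, so other GATA-type motifs are not excluded. A match is a description of the sequence, since no binding was measured.

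Among the granule protease genes, Mcpt8 and Prss34 were well detected and Cpa3 was low. Mcpt8 (mast cell protease 8, chr14:56082166-56085273, minus strand) had 424 and 528 expected counts in replicates 1 and 2, or 26.3 and 38.6 TPM (32.4 ± 8.68, SD, n = 2). Prss34 (a tryptase-like protease, chr17:25298394-25300165, plus strand) had 732 and 734 counts, or 29.96 and 35.3 TPM (32.6 ± 3.76, SD, n = 2). Prss34 was the higher of the pair in replicate 1 and Mcpt8 in replicate 2, so their order did not hold across libraries. Both lay near the 85th percentile of expressed protein-coding genes, at 85.4 for Mcpt8 and 85.5 for Prss34. Cpa3 (chr3:20215620-20242181, minus strand) had 53 and 51 counts, or 1.80 and 2.04 TPM (1.92 ± 0.170, SD, n = 2). Prss34 stood 16.6-fold above Cpa3 in replicate 1 and 17.3-fold in replicate 2. Mcpt8 stood 14.6-fold and 18.9-fold above it, so both basophil proteases exceeded the carboxypeptidase by more than 10-fold in each library.

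The proteases that mark mature mast cells were at or near 0 in the same libraries. Of 9 mast cell chymase and tryptase genes (Mcpt1, Mcpt2, Mcpt4, Mcpt9, Cma1, Cma2, Tpsab1, Tpsb2 and Tpsg1), 8 had 0 counts in both libraries. The exception was Cma2 with 1 count in replicate 1. A count of 0 allows up to 3 counts, which for these genes means up to 0.0724 to 0.201 TPM depending on length and library. The mast cell receptor genes Mrgprb1 and Mrgprb2 were also at 0 counts in both. Over the 17 mast cell protease and surface genes listed, 11 had 0 counts in both libraries and 3 reached 1 TPM in both. Those 3 were Kit, the receptor for stem cell factor, at 4.41 and 3.96 TPM, Hpgds, a prostaglandin D synthase, at 3.68 and 3.32 TPM, and Mitf, a transcription factor, at 3.03 and 3.49 TPM. Kit is also a progenitor gene, and its level was 2.45-fold and 1.94-fold that of Cpa3.

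The protease genes sit in clusters of related genes, and within those clusters Mcpt8 and Prss34 were exceptions. In the granzyme and chymase locus on chromosome 14, 11 of 15 genes had 0 counts in both libraries. Only Mcpt8 and its neighbour Ctsg, the neutrophil protease cathepsin G, reached 1 TPM in both. Ctsg lies 14607 bases from Mcpt8 and stood at 38.9 and 55.9 TPM, which was 1.48-fold and 1.45-fold the level of Mcpt8. On its other side, 19852 bases away, Mcpt4 had 0 counts in both libraries. Among 8 tryptase and related genes on chromosome 17, Prss34 was the only one to reach 1 TPM in both, and 6 had 0 counts in both. Its nearest neighbour within the family, Prss28, had 2 counts and 0 counts.

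**Figure D1:**
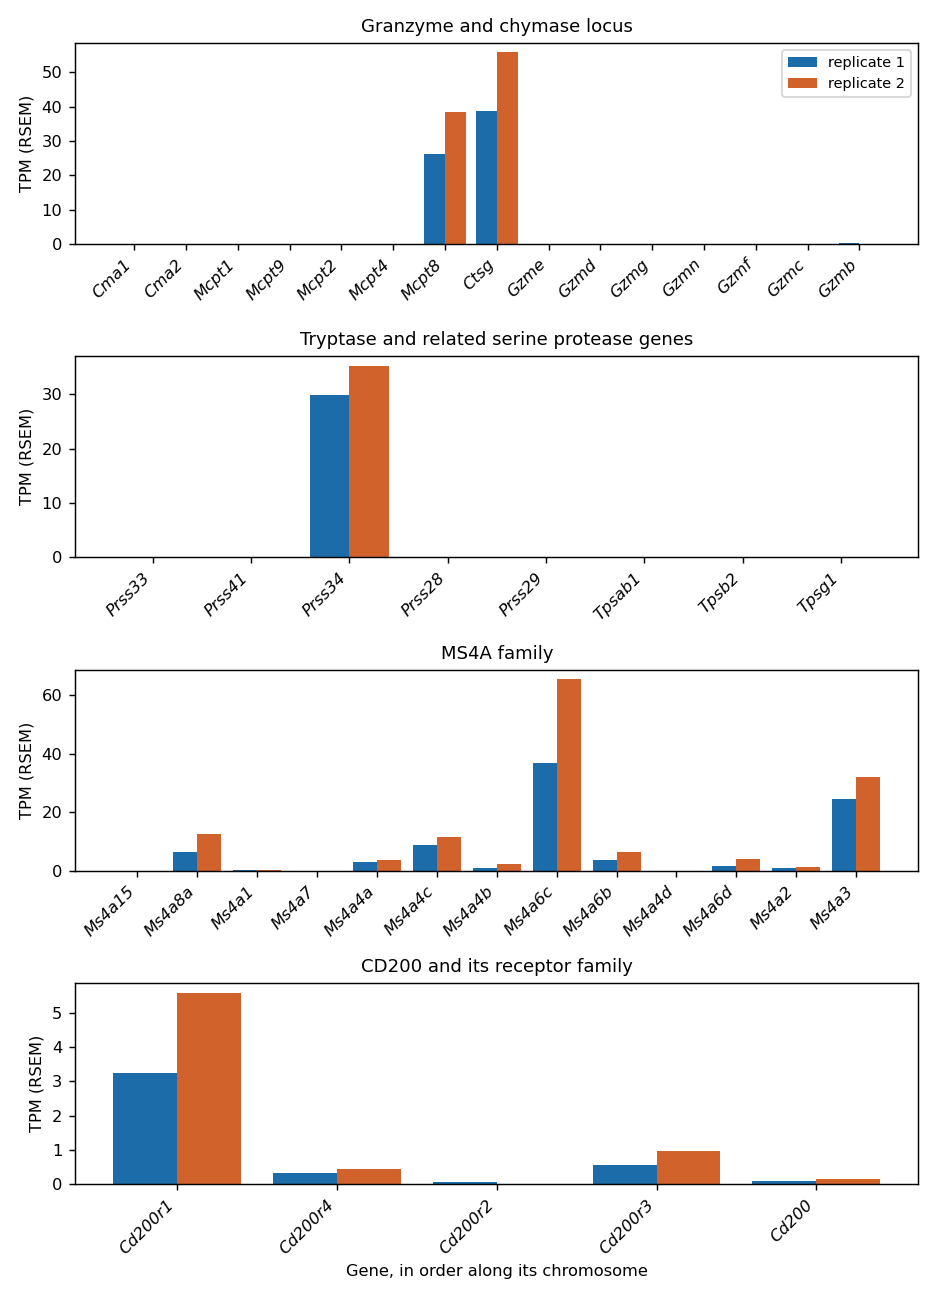
Deposited RSEM TPM (vertical axis, linear, from 0) of the genes of 4 families in their order along the chromosome, with 1 bar for each library. Mcpt8 at 26.3 and 38.6 TPM and Ctsg stand alone in the chymase locus and Prss34 at 29.96 and 35.3 TPM stands alone among the tryptase genes, while Ms4a2 and Cd200r3 are low beside Ms4a3 and Cd200r1. Prss33 and Prss41 lie over 1000 kb from the other tryptase genes.

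Hdc was the most abundant of the 8 genes. Its expected counts were 9769 and 7690 (chr2:126593667-126619299, minus strand), or 216 and 191 TPM (203.9 ± 17.6, SD, n = 2), above 98.1% of expressed protein-coding genes. It stood 8.23-fold above Mcpt8 in replicate 1 and 4.97-fold above it in replicate 2. S100a9, a leading neutrophil transcript, stood 61.0-fold and 145-fold above Hdc. Of the 10 genes listed for histamine synthesis, transport and receptors, 3 reached 1 TPM in both libraries, and Hdc alone reached 10 TPM in both. Hrh2, the histamine H2 receptor, stood at 9.58 and 14.3 TPM, and Hnmt, an enzyme that inactivates histamine, at 3.39 and 5.10 TPM. Slc18a2, the vesicle transporter that loads histamine into granules, had 32 and 30 counts and 0.350 and 0.380 TPM, and like the remaining receptors it was named after its values were seen. Hrh1, Hrh3 and Hrh4, the other histamine receptors, had between 0 and 5 counts in each library.

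The IgE receptor chains specific to basophils and mast cells were low, and the shared gamma chain was abundant. Ms4a2 (chr19:11615523-11623719, minus strand) had 37 and 38 counts, or 1.10 and 1.46 TPM (1.28 ± 0.255, SD, n = 2). Fcer1a (chr1:173221284-173227214, minus strand) had 16 and 15 counts, or 0.820 and 0.900 TPM (0.860 ± 0.0566, SD, n = 2). The beta chain was 1.34-fold and 1.62-fold the level of the alpha chain. Fcer1g had 381 and 522 TPM, which was 465-fold and 580-fold the level of Fcer1a and 346-fold and 357-fold the level of Ms4a2. From 16 and 15 counts, the exact 95% Poisson interval of Fcer1a, for counting error only, ran from 0.469 to 1.33 TPM in replicate 1 and from 0.504 to 1.48 TPM in replicate 2.

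Signalling genes downstream of the receptor were mostly expressed. Of 17 genes listed for the IgE receptor and its signalling, the receptor's gamma chain among them and its alpha and beta chains not, 16 reached 1 TPM and 13 reached 10 TPM in both libraries. The list's medians were 64.1 and 65.3 TPM. The highest besides Fcer1g were the kinases Fes, at 219 and 258 TPM, and Syk, at 229 and 221 TPM, both of which act in many myeloid cells. The adaptor Lat was the lowest, with 1.14 and 0.440 TPM.

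Ms4a2 lies in the MS4A cluster of membrane protein genes, of which 13 were listed. In that cluster 9 genes reached 1 TPM in both libraries, and Ms4a2 was among the low ones. Ms4a3, a gene of granulocyte progenitors that lies 5776 bases from Ms4a2, had 24.7 and 31.9 TPM, which was 22.5-fold and 21.9-fold the level of Ms4a2. Ms4a6d, 10673 bases away on the other side, had 1.77 and 4.13 TPM. Fcer1a lies between olfactory receptor genes, and the nearest on each side, Olfr1404 and Olfr418, had 0 counts in both libraries.

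Gata2 (chr6:88193891-88207032, plus strand) had 119 and 108 counts, or 1.79 and 2.58 TPM (2.19 ± 0.559, SD, n = 2). It was the highest of the 3 GATA factor genes known from blood cells. Gata1 had 16 and 13 counts and 0.520 and 0.390 TPM, so Gata2 was 3.44-fold and 6.62-fold higher, and Gata3 had 3 and 8 counts. Of the 17 GATA and progenitor factor genes listed, which do not include Gata2, 12 reached 1 TPM in both libraries. The highest were Spi1, the myeloid factor PU.1, at 156 and 252 TPM, Runx1 at 54.1 and 57.1 TPM and Cebpe, a factor of granulocyte maturation, at 37.7 and 67.2 TPM. Gata1, Gata2 and Gata3 were named together after their values were seen. Among 10 stem and progenitor markers 5 reached 1 TPM in both libraries, led by Myb at 13.7 and 20.1 TPM, Kit, and Cd34 at 1.98 and 2.09 TPM.

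Cd200r3 (chr16:44943678-44981380, plus strand) had 32 and 47 counts, or 0.560 and 0.970 TPM (0.765 ± 0.290, SD, n = 2). Its relative Cd200r1, the inhibitory receptor of myeloid cells, had 3.26 and 5.59 TPM, which was 5.82-fold and 5.76-fold the level of Cd200r3. Cd200r4 had 0.340 and 0.450 TPM, and Cd200r2, the gene next to Cd200r3, had 3 counts and 0 counts. Cd200, the ligand, had 2 and 3 counts. Cd200r1 was the only one of these 5 genes to reach 1 TPM in both libraries.

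All 8 genes had whole expected counts in both libraries. The genes fell into 3 levels, with Hdc highest, Prss34 and Mcpt8 next, and the other 5 between 0.56 and 2.58 TPM. Of the 8 genes, 6 reached 1 TPM in both libraries and 3 reached 10 TPM in both. The medians of the 8 were 1.80 and 2.31 TPM, against 4.03 and 4.87 TPM over the 14633 expressed protein-coding genes. Order within the low level was loose. Gata2 and Cpa3 stood at 1.79 and 1.80 TPM in replicate 1, and Fcer1a was above Cd200r3 in replicate 1 and below it in replicate 2. Cpa3 was above Ms4a2 in both libraries by RSEM, and by kallisto Ms4a2 was above Cpa3 in replicate 2. In these bulk samples fewer cells of a type and less RNA per cell cannot be told apart, so the levels do not say how many cells carried them. With TPM rescaled over protein-coding genes alone, each mean was 2.51 to 2.65 times as high, and the median of the 8 became 5.28 ± 0.269 (SD, n = 2).

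**Figure D2:**
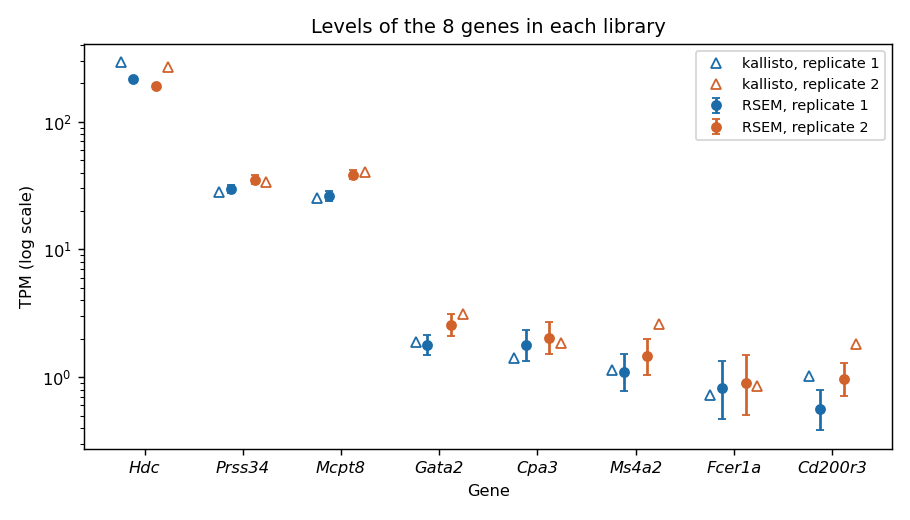
TPM of each of the 8 genes on a log axis, with circles for RSEM and open triangles for kallisto, blue for replicate 1 and orange for replicate 2. Bars on the circles are exact 95% Poisson intervals of the counts, for counting error only. Hdc lies at 191 and 216 TPM, Prss34 and Mcpt8 between 26.3 and 38.6 TPM, and the other 5 genes between 0.56 and 2.58 TPM by RSEM.

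Set against lists of related genes, the 8 genes were far below the neutrophil-defining genes in their median. They were above the mast cell list only when its genes at 0 counts were kept. On log2(TPM + 0.1), the median of the 8 was below the median of the 14 neutrophil-defining genes, with a difference of -8.35 ± 0.126 (SD, n = 2). It was below that of the IgE receptor signalling list as well, with a difference of -4.93 ± 0.219 (SD, n = 2). Against the 17 mast cell protease and surface genes the difference was 4.41 ± 0.239 (SD, n = 2). The median of that list was 0 TPM in both libraries, so the size of this difference depends on the 0.1 added. It became -0.62 ± 0.148 when only the 5 of those genes with at least 10 counts were kept. Of 16 basophil cytokine and cytokine receptor genes, 11 reached 1 TPM and 6 reached 10 TPM in both libraries. The highest were Csf2ra, the receptor chain for GM-CSF, at 373 and 448 TPM, Csf2rb, the shared beta chain of the GM-CSF, IL-3 and IL-5 receptors, at 73.7 and 104 TPM (its counts can be split with the near-identical Csf2rb2), and the granule membrane gene Cd63 at 56.98 and 65.7 TPM. Il3ra, the alpha chain for the basophil growth factor IL-3, had 8.87 and 14.1 TPM, so that Csf2rb was 8.31-fold and 7.44-fold higher. Il4 and Il13, the cytokines that basophils release, and Ptgdr2, a prostaglandin D2 receptor, had 0 counts in both libraries. These 3 and Il3ra were named after their values were seen.

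**Figure D3:**
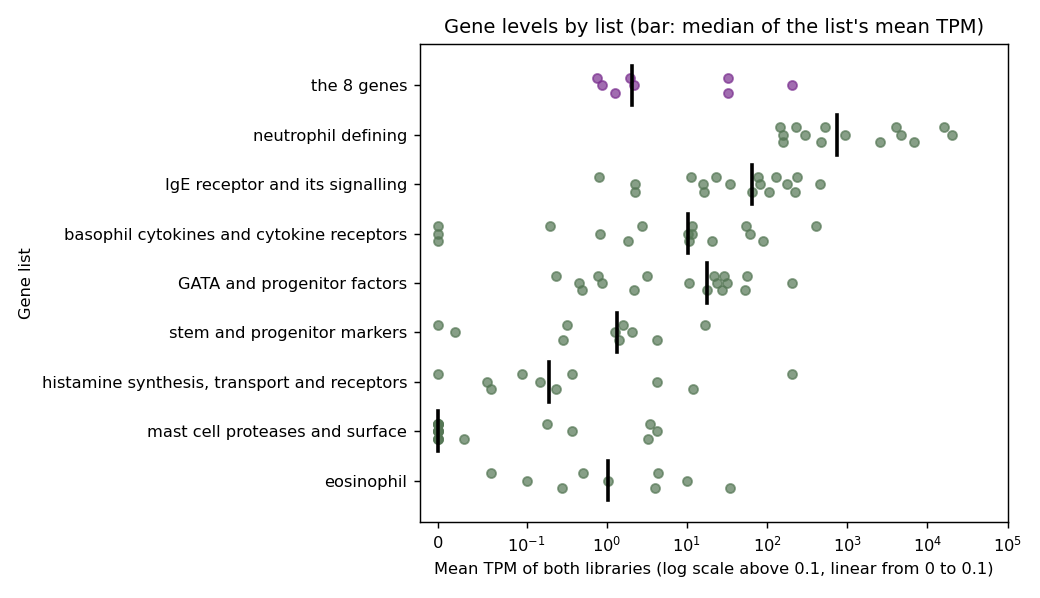
Mean TPM of both libraries for each gene of 9 lists, on an axis that is linear from 0 to 0.1 and logarithmic above, with a black bar at the median of each list. The 8 genes (purple) spread from 0.765 TPM (Cd200r3) to 203.9 TPM (Hdc), below the 14 neutrophil-defining genes in their median, and 11 of the 17 mast cell genes lie at 0.

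The libraries were then compared gene by gene, which tests 2 libraries beyond counting error and no condition. A two-sided exact binomial test of the rounded counts, scaled by TMM and adjusted by Benjamini-Hochberg over 15118 genes, called 1 of the 8 genes higher in replicate 1 and 1 higher in replicate 2. The remaining 6 were not called. Over all genes tested 32.1% were called, 15.0% higher in replicate 1 and 17.0% higher in replicate 2, so the count among the 8 is near the background. Hdc was the gene higher in replicate 1, with a log2 ratio of 0.36 (95% interval 0.32 to 0.41, exact binomial, adjusted p = 2.45e-59), a direction that turned to -0.38 when the libraries were scaled by their ERCC totals. Mcpt8 was the gene higher in replicate 2, with a log2 ratio of replicate 1 over replicate 2 of -0.30 (95% interval -0.49 to -0.11, exact binomial, adjusted p = 0.00656). That direction held under the 5 other settings tried. Spike-in scaling shifted the median log2 ratio of all genes to -0.74.

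Prss34 was not called between the libraries. Its log2 ratio was 0.013 (95% interval -0.14 to 0.16, exact binomial, adjusted p = 0.941), and it was -0.73 with ERCC totals. The interval for Mcpt8 overlapped it between -0.14 and -0.11, and the difference between the 2 genes was not tested. For the 5 low genes the intervals were wide, from -0.23 to 0.55 for Gata2 and from -1.001 to 1.23 for Fcer1a, so differences of that size were not detectable at this depth. By TPM, 7 of the 8 genes were higher in replicate 2, Hdc being the exception, and so was the summed TPM of protein-coding genes. Among the neutrophil-defining genes 13 of 14 were called higher in replicate 2, with a median log2 ratio of -0.40. Of the eosinophil genes tested, 4 of 6 were called higher in replicate 2, and of the B cell genes 5 of 6. Of the platelet and megakaryocyte genes 4 of 6 were called higher in replicate 1 and 1 higher in replicate 2. In the erythroid list 4 of 6 were called higher in replicate 2. The part of these other cells in the differences of Mcpt8 and Hdc was not tested.

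**Figure D4:**
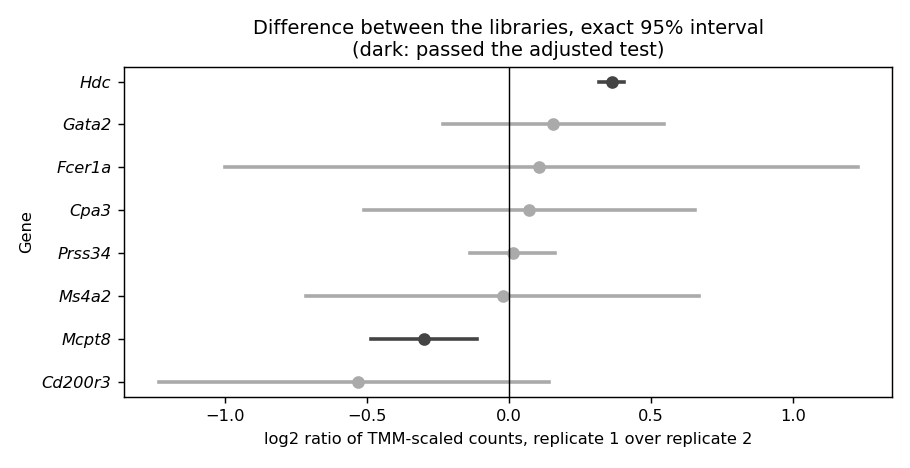
Log2 ratio of TMM-scaled counts, replicate 1 over replicate 2 (horizontal axis), for each of the 8 genes, with the exact 95% interval as a line. Hdc at 0.36 and Mcpt8 at -0.30 (dark) passed the adjusted test, the intervals of the other 6 (grey) cross 0, and under spike-in scaling the ratio of Hdc becomes -0.38.

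The transcript tables showed which annotated transcripts the counts went to, over 32 transcripts of the 8 genes. In 6 genes the transcript with the highest TPM was the same in both libraries and both quantifications, and Gata2 and Ms4a2 were the exceptions. Prss34 has 1 annotated transcript. Mcpt8-201, the protein-coding transcript, took 97.6% ± 1.42 of Mcpt8 TPM by RSEM and 89.9% ± 5.28 by kallisto (SD, n = 2). Cpa3-201 took all of Cpa3 in both.

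Hdc counts were divided between the coding transcript and a transcript with retained introns. The libraries were of total RNA. Reads from unspliced RNA may therefore be counted in transcripts that keep intron sequence, here and in Gata2 and Cd200r3, which was not tested. Hdc-201, the coding transcript of 12 exons, took 63.8% and 63.1% of the gene's RSEM counts in replicates 1 and 2. Hdc-204, which keeps the intron between exons 4 and 5 of Hdc-201 within a single exon of 2242 bases (chr2:126604241-126606482) and ends in an exon of 1471 bases (chr2:126600234-126601704), took 30.9% and 32.0%. The kallisto count shares were 30.5% and 31.9%. Hdc-204 is longer than Hdc-201, with 4518 bases against 2392, and per length its share of TPM was 14.5% and 15.7% by RSEM and 9.61% and 10.6% by kallisto. Over 1907 genes with an annotated retained-intron transcript and at least 1000 counts in each library, the median RSEM share of such transcripts was 11.5% and 9.76%, and Hdc lay at percentiles 83.3 and 86.3. The gap in Hdc level between the quantifications, 291 and 270 TPM by kallisto against 216 and 191 by RSEM, lay in Hdc-205. This transcript of 354 bases with no coding sequence stood at 107 and 83.5 TPM in the kallisto table and at 24.1 and 11.1 TPM in the RSEM table.

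Both long protein-coding transcripts of Gata2 were detected, and they begin at different starts. Gata2-202 begins at the distal first exon (chr6:88193891-88194000, the start whose upstream bases are printed with the other windows) and Gata2-201 at the proximal first exon (chr6:88198334-88198881). They share exons 2 to 5. By RSEM, Gata2-202 had 81.6 counts in replicate 1 and 40.1 in replicate 2, and Gata2-201 had 33.3 and 48.0. By kallisto the values were 97.7 and 54.1 for Gata2-202 and 23.0 and 38.5 for Gata2-201. The distal form had more counts in replicate 1 by both, and in replicate 2 their order differed between the quantifications. Per length, the retained-intron transcript Gata2-204 was the highest of the gene in replicate 2, with 0.840 TPM by RSEM and 1.36 TPM by kallisto. Those levels rest on only 11.6 and 18.1 counts, and by RSEM Gata2-201 was close behind at 0.740 TPM. In replicate 1 it had 0 TPM by RSEM and 0.352 TPM by kallisto, and Gata2-202 was the highest there. Only 112 bases of Gata2-202 and 272 bases of Gata2-201 are in no other transcript of the gene. The rest of the 548-base first exon of Gata2-201 is shared only with Gata2-203, which had 0 counts by RSEM. The division between Gata2-201 and Gata2-202 therefore rests mainly on reads over their first exons and on reads that join those to the next exon.

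In Ms4a2 and Cd200r3 most counts went to a transcript with a long last exon. Ms4a2-204, whose last exon has 2049 bases against 379 in Ms4a2-202, took 68.0% and 58.1% of Ms4a2 counts by RSEM and 70.6% and 59.3% by kallisto. Per length, its share of TPM was 45.5% and 35.6% by RSEM and 36.6% and 19.9% by kallisto, and by RSEM Ms4a2-202 led with 54.5% and 64.4%. Cd200r3-209, whose last exon has 3140 bases (chr16:44957728-44960867), took 75.7% and 81.3% of counts by RSEM and 92.3% and 94.6% by kallisto. In TPM it also led, with 51.8% and 56.1% by RSEM and 79.1% and 80.7% by kallisto. That exon begins where the fourth exon of Cd200r3-206 begins and runs on into the following intron of that transcript. For Cd200r3 the quantifications also differed in total, with 91.0 and 126 counts by kallisto against 32 and 47 by RSEM, which is 2.84-fold and 2.68-fold. In TPM, with 0.1 added to each value, the gap was 1.70-fold and 1.78-fold. Of the 8 genes 7 reached a mean of 1 TPM by either quantification. With the same 0.1 added, 0 of these 7 differed over 2-fold in TPM the same way in both libraries, against 13.2% of all 13328 genes compared.

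**Figure D5:**
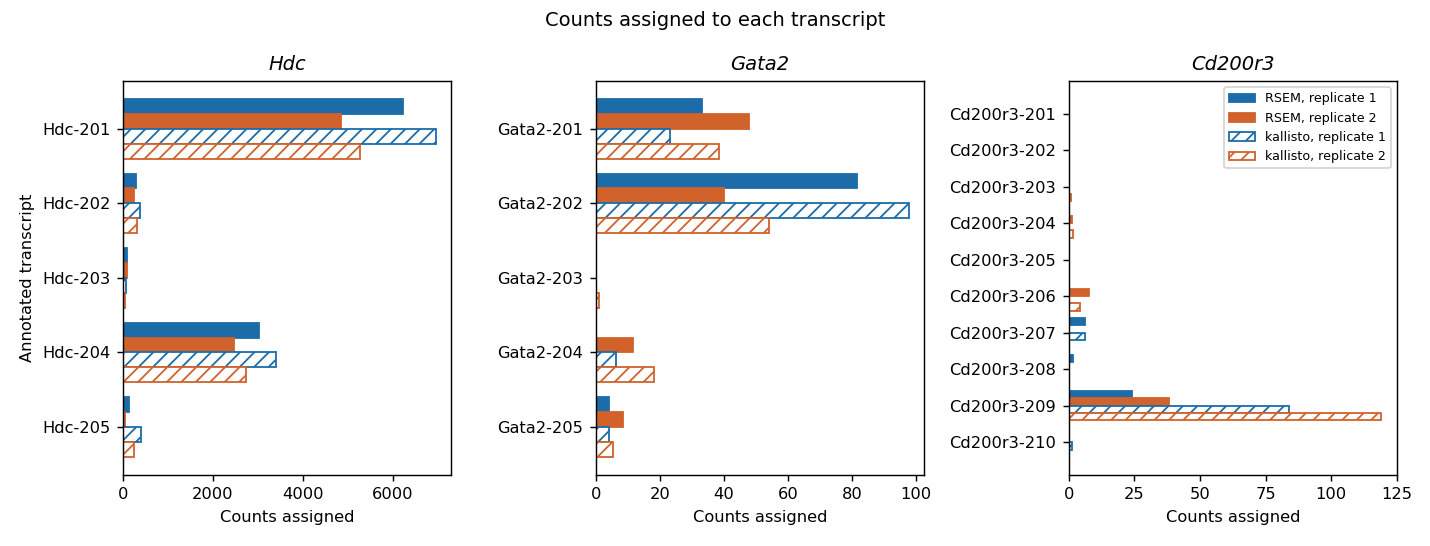
Counts assigned to each annotated transcript of Hdc, Gata2 and Cd200r3 (horizontal axis, linear from 0), filled bars for RSEM and hatched bars for kallisto, blue for replicate 1 and orange for replicate 2. Hdc-201 and Hdc-204 hold most Hdc counts, Gata2-202 is ahead of Gata2-201 in replicate 1, and Cd200r3-209 holds most Cd200r3 counts with more by kallisto than by RSEM.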

How the data were processed

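The authors deposited 3 tables for each of the 2 libraries. Of these the deposited gene table and 1 transcript table follow RSEM's layout, with expected counts and TPM from alignments to the transcriptome (mm10, GENCODE M21), per the files' accompanying notes. The deposited second transcript table has kallisto's layout and holds estimated counts and TPM made from the reads directly. The aligner and the program versions were not given in the sources used here. Levels are deposited RSEM TPM as mean and SD of n = 2. List differences add 0.1 before log2, and TPM ratios between the quantifications add 0.1 to each value. Libraries were compared with an exact two-sided binomial test (scipy 1.17.1) on expected counts rounded to whole numbers, with TMM from edgeR 4.0.16, for genes reaching 10 counts over both libraries, at an adjusted p of 0.05, and log2 ratios add 0.5 to each count. The test was also run on simulated counts with counting error only, which cannot show how it behaves when libraries vary beyond that. Alternatives used DESeq2 1.42.0 size factors, spike-in totals, unscaled sizes, no filter, kallisto values, another pseudocount and each library left out. The members and the 18 gene lists were chosen with earlier results of these data known. Named are the 8 genes, up to 3 genes a list (the highest mean TPM and those called between libraries) and cluster neighbours. Other genes were named after their values were seen. Depth was 18387963 and 18090108 expected counts, and 1 count on 1 kb is worth 0.0458 and 0.0538 TPM. Reads carry no molecular identifiers, so intervals and limits cover counting error only.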

Additional observations from a re-analysis of the deposited data

How the results depend on the processing

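Under ERCC totals 0 of the 8 genes were higher in replicate 1 and 7 were higher in replicate 2. Over all 15118 genes tested under that scaling 75.1% were called, 187 higher in replicate 1 and 11163 higher in replicate 2. With kallisto counts 2 of the 8 were higher in replicate 2, Mcpt8 and Cd200r3. Over all 19305 genes tested with those counts 31.1% were called, 3413 of them higher in replicate 2. With ERCC totals the log2 ratio (replicate 1 over 2) reversed to -0.73 for Prss34, -0.64 for Fcer1a, -0.67 for Cpa3, -0.59 for Gata2 and -0.38 for Hdc. Prss34 reversed to -0.025 without TMM and to -0.0039 with DESeq2 size factors, and Cpa3 to -0.13 with kallisto counts, and each of these ratios is near 0. The median level of the 8 genes became 5.28 TPM over protein-coding genes alone, where the smaller total sets the change, and was 1.80 to 2.31 TPM with a library left out. The list differences moved to -7.84 with a pseudocount of 1 and -8.49 by kallisto for the neutrophil-defining genes, to -4.44 with a pseudocount of 1 for the IgE receptor signalling list, and to 1.60 with a pseudocount of 1 for the mast cell list. With only genes of at least 10 counts the mast cell difference reversed to -0.62 and the eosinophil difference to -0.88, since genes at or near 0 leave those lists. No paired analysis was possible because there is 1 group. For the 5 genes under 130 counts a library, depth limits what can be seen.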

Other observations

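Of 9 eosinophil genes, 4 reached 1 TPM in both libraries. Ear2, a ribonuclease, stood at 19.5 and 48.6 TPM in replicates 1 and 2. Prg2, major basic protein, stood at 7.39 and 12.8 TPM, and Ear1 at 2.00 and 6.62 TPM. The expected counts of Ear1 and Ear2 were not whole, so their reads can be split with related genes. By kallisto Ear1 had 0.861 and 2.28 TPM, and Ear2 15.5 and 37.9 TPM. Epx, eosinophil peroxidase, had 0.530 and 1.52 TPM, and Ccr3, named after its values were seen, had 0 and 7 counts. Of the 6 eosinophil genes tested, 4 were called higher in replicate 2 by the exact binomial test, against 17.0% of all genes tested. These were Ear2, Ear1, Prg2 and Epx, with log2 ratios of -1.06, -1.44, -0.55 and -1.25. Siglecf, at 3.74 and 4.25 TPM, and Prg3 were not called, with log2 ratios of -0.22 and -1.21. Among the 8 genes, Mcpt8 was called higher in replicate 2 (-0.30) and Hdc higher in replicate 1 (0.36). The other 6 were not called, Cd200r3 at -0.53 and Prss34 at 0.013 among them. On log2(TPM + 0.1) the median of the 8 genes was above that of the eosinophil genes by 1.59 in replicate 1 and 0.56 in replicate 2, and below it by a mean difference of -0.88 when only genes with at least 10 counts were kept.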
